A study of Mus musculus with 18 samples.

Results

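The matrix metalloproteases (MMPs), the ADAMTS proteases with their ADAMTS-like relatives and the tissue inhibitors of metalloproteases (TIMPs) were followed in mouse embryonic fibroblasts (MEFs) lacking the DNA polymerase epsilon subunit Pole4, the tumour suppressor Trp53 or both. The members were taken by gene symbol alone: 51 of the 51912 genes counted, made up of 23 MMP, 19 ADAMTS, 5 ADAMTS-like and 4 TIMP genes, of which 39 had enough reads to be tested. RNA-seq was done on 18 libraries of primary MEFs at passage 1, grown in 5% oxygen and 15% fetal bovine serum. There were 3 libraries of each of 6 genotypes: MEFs with Pole4 (Pole4+/+) that were Trp53+/+, Trp53+/- or Trp53-/-, and MEFs without it (Pole4-/-) that were likewise Trp53+/+, Trp53+/- or Trp53-/-. Both alleles are constitutive, so all cells of a culture carry them, and the cultures came from mid-gestation embryos of double-heterozygous parents after removal of head, heart and liver. The comparisons ask whether loss of Trp53 alters these genes with and without Pole4, and the reverse.

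MMPs and ADAMTS proteases are zinc enzymes that cut the proteins and proteoglycans of the extracellular matrix outside the cell. Most are made as inactive proenzymes, and once activated they are held in check by the TIMPs, which bind the active site. Fibroblasts are a main source of both enzymes and inhibitors in connective tissue, and many secreted MMP genes respond to growth factors and inflammatory signals through AP-1, the Fos-Jun family of transcription factors. ADAMTS-like proteins share the domains that bind matrix but lack a protease domain.

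Each library summed to between 9535971 and 35319918 counts (median 22781543.5), and the share on ribosomal RNA genes ranged from 0.968% to 42.5%, lying between 24.7% and 30.0% in Pole4-/- Trp53-/-. Trp53 fell from 90.8 ± 4.81 CPM (counts scaled to a common library size; mean ± SD, n = 3) in Pole4+/+ Trp53+/+ to 10.7 ± 1.83 in Pole4+/+ Trp53-/-, and its target Cdkn1a from 242 ± 9.88 to 9.83 ± 3.61. Pole4 reads remained in the null, at 10.3 ± 0.986 CPM in Pole4-/- Trp53+/+ against 20 ± 3.41 in Pole4+/+ Trp53+/+. Reads of the female-specific RNA Xist were high in 11 libraries and low in 7; all Pole4+/+ Trp53+/+ and Pole4+/+ Trp53-/- libraries were Xist-high and all Pole4+/+ Trp53+/- libraries Xist-low, so sex and Trp53 heterozygosity cannot be told apart in Pole4+/+ MEFs. One library, Pole4+/+ Trp53-/- replicate 1, stood apart: it held both Xist (30727 counts) and Y-linked reads (258 counts, 7.20 CPM, against at most 0.302 CPM in the other Xist-high libraries), and it was the highest of the 9 Pole4+/+ libraries for 14 of the 39 tested members. Of all 18 libraries it was the highest for 4 members and the lowest for 5, and the share of all genes was not counted. Its Pole4 level, 14.2 CPM, was the lowest of the 9 Pole4+/+ libraries (16.3 to 26.4 CPM in the others), against 9.26 to 12 CPM in the Pole4-/- libraries. Whether it holds RNA of more than 1 culture was not tested. Results that rest on it are given with and without it. The labels do not state that replicates of a genotype came from separate embryos, so p-values measure the spread between these libraries. In bulk RNA, fewer cells of a type and less RNA per cell cannot be told apart.

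Per kilobase of exon, the most abundant member was Timp1 at a mean of 168 CPM per kb over the 18 libraries, followed by Timp2 at 145, Mmp2 at 72.6, Mmp14 at 53.9, Timp3 at 52.3, Adamts1 at 31.5 and Adamts5 at 16.9. The leading RNAs were thus 3 inhibitors, 1 gelatinase, 1 membrane-type MMP and 2 proteoglycan-cleaving ADAMTS enzymes, and every other member averaged 10.5 CPM per kb (Mmp23) or less. Summed over their genes without regard to length, the TIMPs reached a mean of 1140 CPM, the MMPs 684, the ADAMTS genes 580 and the ADAMTS-like genes 91.7. The 12 members with too few reads to test were Mmp1a, Mmp1b, Mmp7, Mmp8, Mmp20, Mmp21, Mmp24, Mmp27, Adamts13, Adamts19, Adamtsl2 and Timp4; Mmp7, known from epithelia, and Mmp20, the enamel protease, had 0 counts in all 18 libraries, and Mmp24 and Adamtsl2 had 57 counts each in all.

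**Figure D1:**
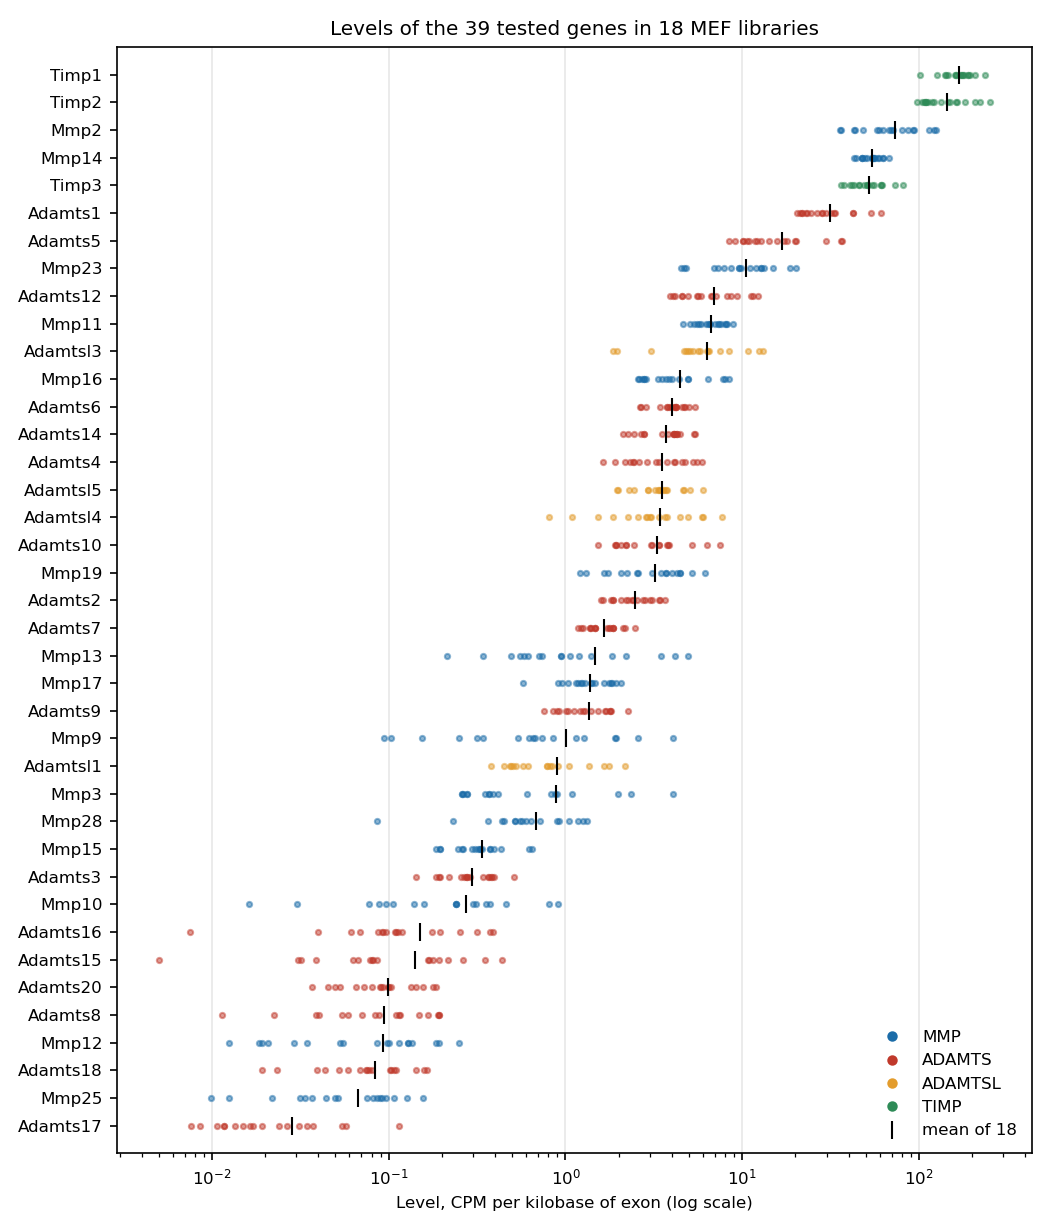
Level of each tested member in CPM per kilobase of exon on a log axis, 1 point per library, coloured by gene family, with a tick at the mean. 1 value of 0, for Adamts8, is not drawn. Timp1 and Timp2 lie at the top, with means of 168 and 145 CPM per kb.

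The collagenase and stromelysin genes of the chromosome 9 cluster were scarce. The cluster holds 10 MMP genes and spans 427 kb (chr9:7272514-7699585 in GRCm38, the build of all positions given; Mmp13, Mmp12, Mmp1b, Mmp3, Mmp1a, Mmp10, Mmp8, Mmp27, Mmp20 and Mmp7). Only 4 of these 10, Mmp13, Mmp12, Mmp3 and Mmp10, had enough reads to be tested, and their mean levels summed with the others to 6.70 CPM. Mmp3 and Mmp10 counts included fractions of reads shared with similar sequences, so their levels are uncertain. The 7 members whose promoter window holds both an AP-1 motif (TGANTCA) and a TATA motif (TATAAA) are all in this cluster: Mmp13, Mmp1b, Mmp3, Mmp1a, Mmp10, Mmp20 and Mmp7. The windows ran from 250 bases before to 50 after the RefSeq start, were available for 36 of the 51 members, and were searched on both strands. The AP-1 motif was in 7 of 36 member windows (19.4%) against 7.93% of 27025 mouse windows, the TATA motif in 11 of 36 (30.6%) against 14.2%, the pair in 7 of 36 against 1.67%, and a GC box (GGGCGG) in 21 of 36 (58.3%) against 35.9%. The 100 bases before the start are shown (RefSeq, GRCm38.p6, 5′ to 3′ on the gene's strand; capitals mark these motifs) for 3 genes of the cluster, as its shared layout, and for Adamts12 and Timp2, 2 members with other layouts on which results turn; apart from Adamts12 they were chosen after their values were seen.
Mmp13 (chr9:7272414-7272513, plus strand): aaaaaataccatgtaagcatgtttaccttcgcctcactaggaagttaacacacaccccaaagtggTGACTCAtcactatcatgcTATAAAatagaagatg
Mmp3 (chr9:7445722-7445821, plus strand): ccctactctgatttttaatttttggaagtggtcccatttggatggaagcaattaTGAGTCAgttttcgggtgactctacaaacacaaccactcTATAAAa
Mmp10 (chr9:7502242-7502341, plus strand): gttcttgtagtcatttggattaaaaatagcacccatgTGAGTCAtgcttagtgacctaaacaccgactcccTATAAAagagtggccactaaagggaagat
Adamts12 (chr15:11064673-11064772, plus strand): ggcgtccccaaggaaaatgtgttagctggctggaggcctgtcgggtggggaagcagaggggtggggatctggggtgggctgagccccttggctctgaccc
Timp2 (chr11:118355412-118355511, minus strand): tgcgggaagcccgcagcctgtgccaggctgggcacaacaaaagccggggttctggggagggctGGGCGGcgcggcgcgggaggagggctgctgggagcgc
In Mmp13, a collagenase, the AP-1 motif began 35 bases before the start and the TATA motif 16. Mmp3 and Mmp10, both stromelysins, had the AP-1 motif 46 and 63 bases before the start. The Adamts12 window held none of the 3 motifs, and Timp2 held 1 GC box 37 bases before its start. A match of letters is a description and not evidence of binding.

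Pole4-/- Trp53+/+ MEFs held the most RNA of these genes and Pole4-/- Trp53-/- MEFs among the least. Summed MMP levels were 1018, 929 and 931 CPM in the 3 Pole4-/- Trp53+/+ libraries and 510, 522 and 508 in the 3 Pole4-/- Trp53-/- libraries. For the ADAMTS genes the sums were 1053, 997 and 866 CPM against 418, 460 and 396, and for the ADAMTS-like genes 172, 186 and 153 against 62.7, 75.3 and 34.5. TIMP sums were 1386, 1614 and 1381 CPM against 944, 1172 and 1065. In all 4 families every Pole4-/- Trp53+/+ library lay above every Pole4-/- Trp53-/- library. The 3 Pole4-/- Trp53+/+ libraries were the highest of all 18 for 11, 6 and 4 of the 39 tested members. The share of all genes that were highest in these libraries was not counted.

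**Figure D2:**
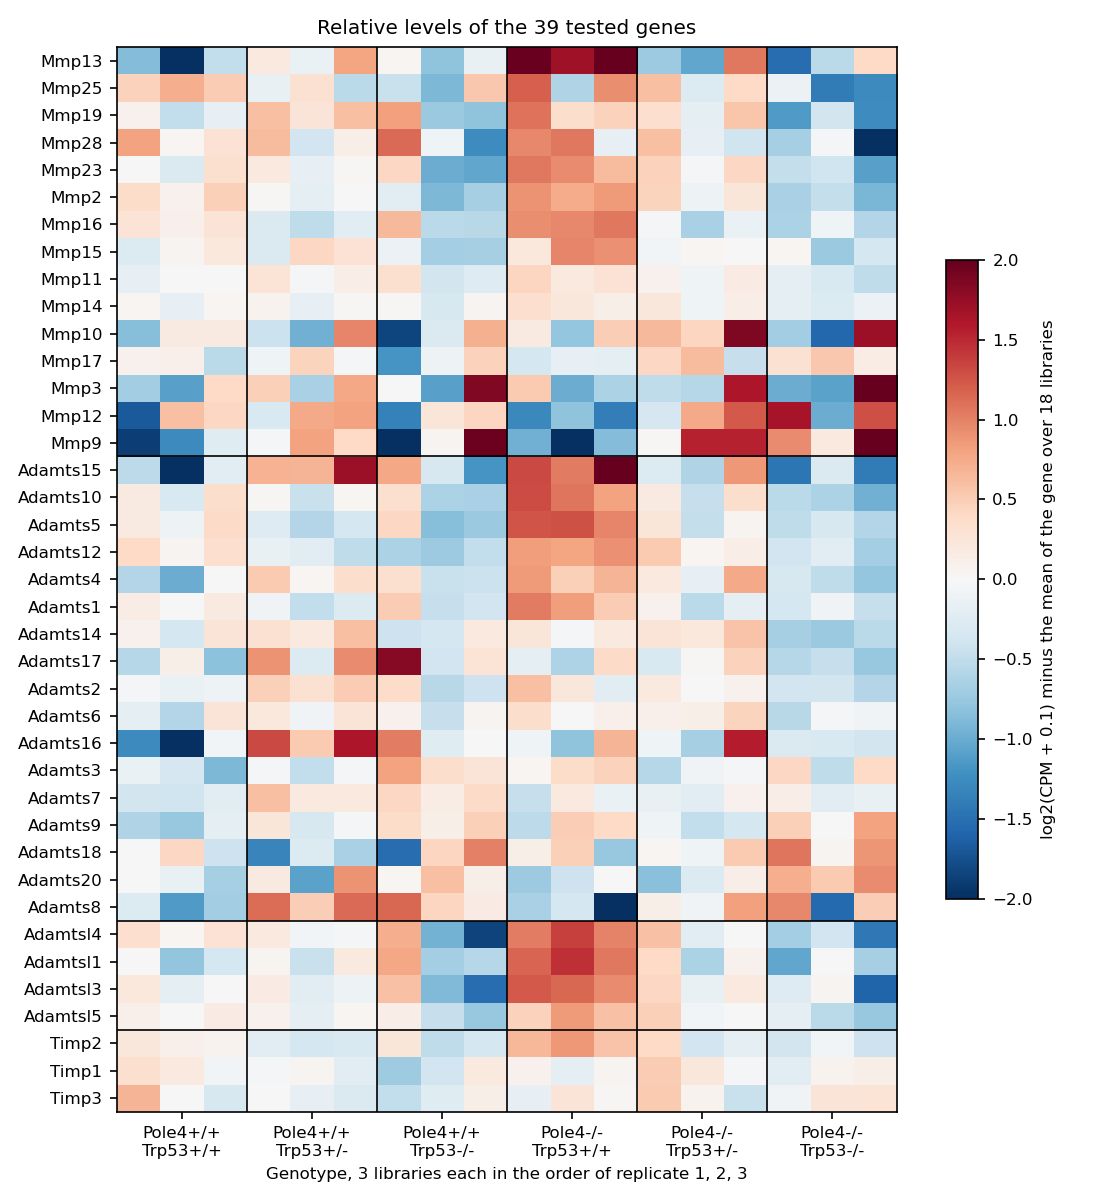
Heat map of the 39 tested members (rows) in the 18 libraries (columns, grouped by genotype) as log2(CPM + 0.1) minus the gene's mean over all libraries, with the colour scale ending at -2 and 2. The 3 Pole4-/- Trp53+/+ columns hold the highest value of 11, 6 and 4 rows, and Pole4+/+ Trp53-/- replicate 1 differs from the other 2 libraries of its genotype.

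Of the comparisons made, Trp53 loss in Pole4-/- MEFs changed the most members. Of the 39 tested members, 22 were lower and 3 higher in Pole4-/- Trp53-/- than in Pole4-/- Trp53+/+ MEFs (edgeR quasi-likelihood test, Benjamini-Hochberg adjusted p under 0.05 over all 15710 genes tested). Among all genes tested 20.8% were lower and 21.8% higher. The median log2 fold change was -0.80 over the members and -0.02 over all genes. By family, 9 of 15 MMP, 8 of 17 ADAMTS, 4 of 4 ADAMTS-like and 1 of 3 TIMP genes fell, while 2 MMP genes and 1 ADAMTS gene rose. The 2 groups did not overlap for 25 of 39 members, against 57% of all genes; all Pole4-/- Trp53-/- values were the lower for 22 of them (28.5% of all genes) and the higher for 3 (28.5%). Of the 25 members that passed the test, Mmp12 and Mmp25 did overlap. With library totals alone as the scaling, Adamts2, Adamts20, Mmp9, Mmp11, Mmp14 and Mmp25 did not pass (adjusted p up to 0.156, that of Mmp14), leaving 18 lower and 1 higher where 11.7% and 12% of all genes were. Without a filter on low counts, Adamts20, Mmp9 and Mmp25 did not pass, and neither did Mmp12 by limma voom nor Adamts20 with upper-quartile scaling or with the ribosomal RNA share in the fit. In the same comparison, 5 of 12 fibroblast markers fell (Col1a1, Col1a2, Col3a1, Pdgfrb and Fn1) and 1 rose (Pdgfra), and the 12 markers together spanned 25495 to 32633 CPM in Pole4-/- Trp53+/+ and 14269 to 17129 CPM in Pole4-/- Trp53-/- libraries, with none at 0 throughout; their part in the result was not tested. The ribosomal RNA share was 7.11% to 42.5% in Pole4-/- Trp53+/+, and with it in the fit 22 members were lower and 2 higher (20.4% and 21.6% of all genes).

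**Figure D3:**
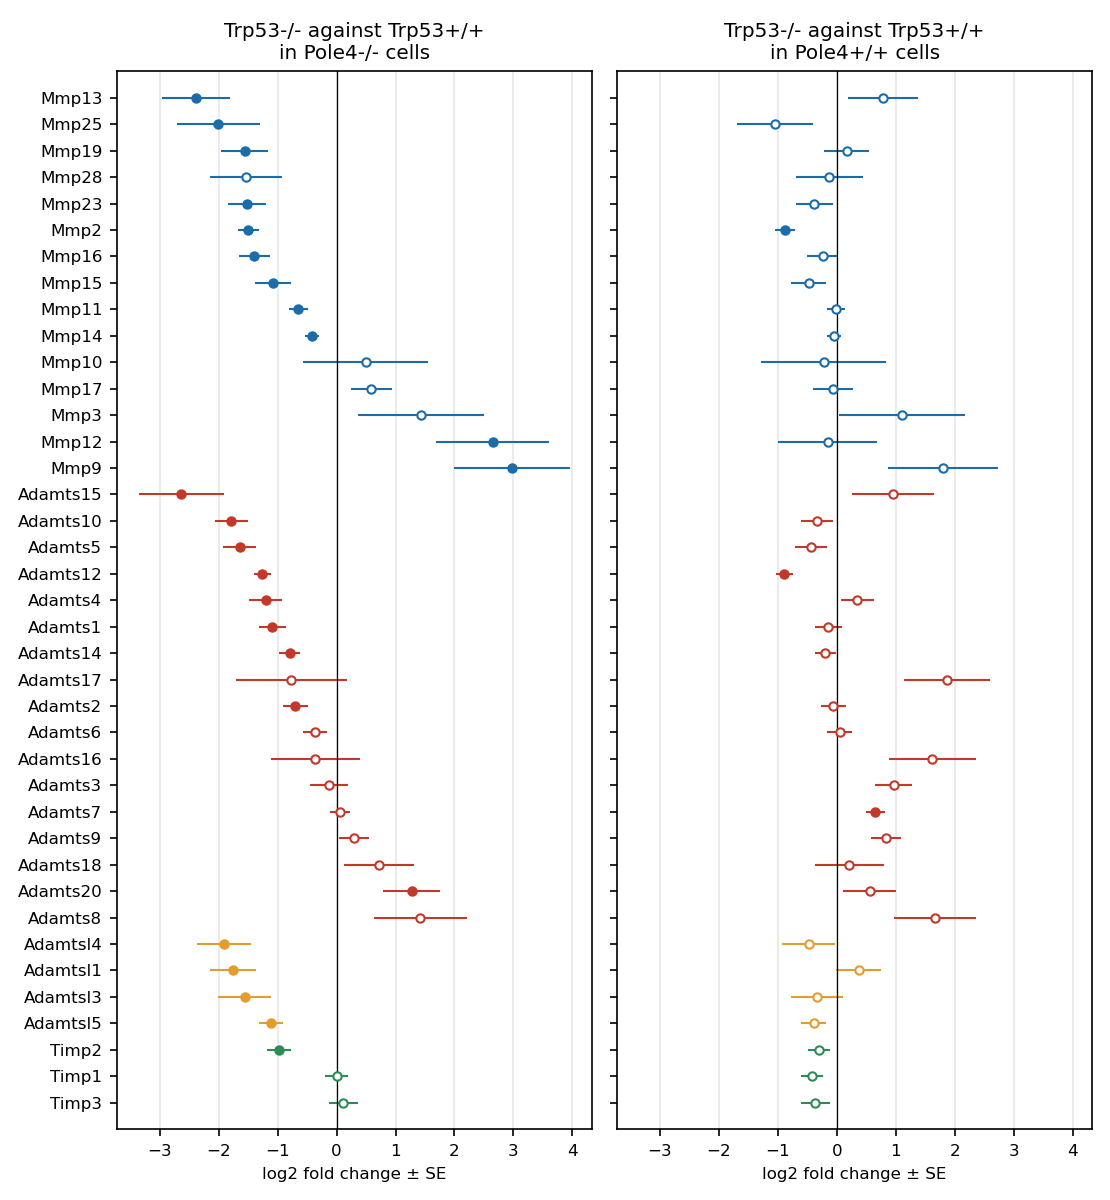
Log2 fold changes of the 39 tested members between Trp53-/- and Trp53+/+ MEFs, in Pole4-/- and in Pole4+/+; points are edgeR estimates, bars standard errors, and filled points passed the test at an adjusted p under 0.05. In Pole4-/- MEFs 22 members lie left of 0 and 3 right of 0 as filled points, and in Pole4+/+ MEFs 2 and 1.

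Among the gelatinases, which cut denatured and basement membrane collagen, Mmp2 fell and Mmp9 rose. Mmp2 (ENSMUSG00000031740, chr8:92827291-92853420, plus strand) was the third most abundant member per kilobase. Mmp2 stood at 293, 241 and 316 CPM in Pole4+/+ Trp53+/+, 232, 199 and 229 in Pole4+/+ Trp53+/- and 196, 122 and 144 in Pole4+/+ Trp53-/- libraries. Mmp2 in Pole4-/- MEFs was at 423, 382 and 409 CPM with Trp53+/+, 310.4, 212.02 and 270.4 with Trp53+/- and 146, 163 and 121 with Trp53-/-. Every Trp53-/- library was below every Trp53+/+ library of the same Pole4 genotype. The log2 fold change of Mmp2 with Trp53 loss was -1.50 ± 0.17 (SE; adjusted p = 1.74e-05) in Pole4-/- and -0.88 ± 0.17 (SE; adjusted p = 0.00765) in Pole4+/+ MEFs. The Pole4+/+ call was lost with library totals alone as the scaling and in a fit of the compared groups only (adjusted p up to 0.180). Mmp9 (ENSMUSG00000017737, chr2:164940780-164955850, plus strand) measured 0.544, 0.879 and 1.90 CPM in Pole4+/+ Trp53+/+, 2.20, 4.06 and 3.02 in Pole4+/+ Trp53+/- and 0.363, 2.37 and 9.14 in Pole4+/+ Trp53-/- libraries. For Mmp9, the Pole4-/- libraries gave 1.12, 0.334 and 1.20 CPM in Trp53+/+, 2.31, 6.83 and 6.76 in Trp53+/- and 4.49, 2.62 and 14.3 in Trp53-/- MEFs. Mmp9 was a minor RNA, highest in Pole4-/- Trp53-/- replicate 3. Its log2 fold change in Pole4-/- MEFs was 2.98 ± 0.98 (SE; adjusted p = 0.0244), and the groups did not overlap, with 2.62 CPM as the lowest Trp53-/- value. It did not pass without Pole4-/- Trp53-/- replicate 3 or without any 1 of the Pole4-/- Trp53+/+ libraries (adjusted p up to 0.131).

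The membrane-anchored MMPs act at the cell surface, where Mmp14 (MT1-MMP) cuts fibrillar collagen and activates the Mmp2 proenzyme. Of the 5 tested, 4 fell with Trp53 loss in Pole4-/- MEFs, where 20.8% of all genes fell. Mmp14 (ENSMUSG00000000957, chr14:54431612-54445364, plus strand) varied little. Mmp14 was counted at 327, 284 and 329 CPM in Pole4+/+ Trp53+/+, 334, 285 and 325 in Pole4+/+ Trp53+/- and 323, 255 and 329.8 in Pole4+/+ Trp53-/- libraries. Mmp14 in Pole4-/- MEFs was at 405, 374 and 347 CPM with Trp53+/+, 372, 302 and 352 with Trp53+/- and 282, 264 and 296 with Trp53-/-. The 3 Pole4-/- Trp53-/- values lay just below the 3 Pole4-/- Trp53+/+ values, and the log2 fold change, -0.42 ± 0.11 (SE; adjusted p = 0.00773), was the smallest in size of the 25. In Pole4+/+ MEFs Mmp14 overlapped between all 3 Trp53 genotypes. Mmp16 (MT3-MMP) changed more. Mmp16 (ENSMUSG00000028226, chr4:17852893-18119145, plus strand) stood at 42.5, 37.8 and 42.5 CPM in Pole4+/+ Trp53+/+, 29, 24.9 and 30.5 in Pole4+/+ Trp53+/- and 55.5, 24.2 and 24 in Pole4+/+ Trp53-/- libraries. For Mmp16, the Pole4-/- libraries gave 67.5, 68.8 and 73.2 CPM in Trp53+/+, 34.8, 22.4 and 32 in Trp53+/- and 22.6, 33.5 and 23.5 in Trp53-/- MEFs. All 3 Pole4-/- Trp53+/+ libraries exceeded the other 15, and the fold change to Pole4-/- Trp53-/- was -1.40 ± 0.27 (SE; adjusted p = 0.000901) on the log2 scale. Mmp15 (ENSMUSG00000031790, chr8:95352268-95375080, plus strand) was counted at 1.42, 1.81 and 2.02 CPM in Pole4+/+ Trp53+/+, 1.40, 2.33 and 2.13 in Pole4+/+ Trp53+/- and 1.59, 1.05 and 1.05 in Pole4+/+ Trp53-/- libraries. Mmp15 in Pole4-/- MEFs was at 2.02, 3.51 and 3.35 CPM with Trp53+/+, 1.67, 1.78 and 1.74 with Trp53+/- and 1.77, 0.995 and 1.33 with Trp53-/-. Mmp15 (MT2-MMP) was thus near the low end of detection and fell by 1.09 ± 0.31 on the log2 scale (SE; adjusted p = 0.00990). Mmp25 (ENSMUSG00000023903, chr17:23628311-23645277, minus strand) measured 0.453, 0.569 and 0.475 CPM in Pole4+/+ Trp53+/+, 0.265, 0.399 and 0.177 in Pole4+/+ Trp53+/- and 0.195, 0.116 and 0.485 in Pole4+/+ Trp53-/- libraries. For Mmp25, the Pole4-/- libraries gave 0.824, 0.167 and 0.669 CPM in Trp53+/+, 0.513, 0.234 and 0.434 in Trp53+/- and 0.272, 0.0524 and 0.0663 in Trp53-/- MEFs. Mmp25, a lipid-anchored MMP known from leukocytes, also passed (-2.01 ± 0.71 SE, adjusted p = 0.0313), but 1 Pole4-/- Trp53+/+ library lay inside the range of the Pole4-/- Trp53-/- libraries. Its call was lost without Pole4-/- Trp53-/- replicate 2 or 3 or Pole4-/- Trp53+/+ replicate 1 or 3 (log2 fold changes of -1.92 to -1.44, edgeR adjusted p up to 0.217). Over all single omissions its log2 fold change ran from -3.16 to -1.44.

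Mmp13, the main collagenase of rodents, was the only collagenase tested. Mmp13 (ENSMUSG00000050578, chr9:7272514-7283331, plus strand) stood at 1.48, 0.569 and 1.96 CPM in Pole4+/+ Trp53+/+, 3.21, 2.53 and 4.88 in Pole4+/+ Trp53+/- and 2.85, 1.55 and 2.51 in Pole4+/+ Trp53-/- libraries. Mmp13 in Pole4-/- MEFs was at 11.2, 9.26 and 13.1 CPM with Trp53+/+, 1.64, 1.31 and 5.90 with Trp53+/- and 0.907, 1.88 and 3.71 with Trp53-/-. The 3 Pole4-/- Trp53+/+ values exceeded all other 15. Its log2 fold change from Pole4-/- Trp53+/+ to Pole4-/- Trp53-/- was -2.39 ± 0.58 (SE; adjusted p = 0.00419). Mmp11 (stromelysin-3), which leaves the secretory pathway already active, fell less. Mmp11 (ENSMUSG00000000901, chr10:75923222-75936496, minus strand) was counted at 16.3, 18.4 and 18.3 CPM in Pole4+/+ Trp53+/+, 22.1, 17.8 and 20.1 in Pole4+/+ Trp53+/- and 22.8, 14.1 and 15.4 in Pole4+/+ Trp53-/- libraries. For Mmp11, the Pole4-/- libraries gave 24.7, 21 and 22.5 CPM in Trp53+/+, 19.4, 17.3 and 20.5 in Trp53+/- and 15.9, 14.9 and 12.8 in Trp53-/- MEFs. No Pole4-/- Trp53-/- value reached 21 CPM, the lowest of Pole4-/- Trp53+/+, and the change was -0.65 ± 0.16 (SE; adjusted p = 0.00378). Mmp11 shares 155 exon bases with Chchd10, and Mmp19 shares 1001 with Tmem198b and Gm47093; whether counting used strand is not given in the sources used here.

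Of the remaining MMPs, Mmp19 and Mmp23 fell and Mmp12 rose. Mmp19 (ENSMUSG00000025355, chr10:128790910-128800824, plus strand) measured 10.9, 7.29 and 9.14 CPM in Pole4+/+ Trp53+/+, 15.7, 12.3 and 15.6 in Pole4+/+ Trp53+/- and 18.3, 6.13 and 5.82 in Pole4+/+ Trp53-/- libraries. Mmp19 in Pole4-/- MEFs was at 21.8, 13.1 and 14.2 CPM with Trp53+/+, 13, 9.02 and 15.2 with Trp53+/- and 4.63, 7.91 and 4.24 with Trp53-/-. Mmp19, a secreted MMP that acts on basement membrane proteins, changed by -1.56 ± 0.40 (SE; adjusted p = 0.00564). Mmp23 (ENSMUSG00000029061, chr4:155650655-155653384, minus strand) stood at 22.5, 18.5 and 28.1 CPM in Pole4+/+ Trp53+/+, 25.7, 20.2 and 23 in Pole4+/+ Trp53+/- and 30, 11.3 and 10.9 in Pole4+/+ Trp53-/- libraries. For Mmp23, the Pole4-/- libraries gave 47.1, 43.7 and 35.1 CPM in Trp53+/+, 31.1, 22.3 and 30 in Trp53+/- and 16.2, 17.1 and 10.5 in Trp53-/- MEFs. In Mmp23, a small MMP made as a type II membrane protein, the 3 Pole4-/- Trp53+/+ libraries again exceeded the other 15, and the change was -1.52 ± 0.32 (SE; adjusted p = 0.00184). Mmp12 (ENSMUSG00000049723, chr9:7344381-7369499, plus strand) was counted at 0.0907, 0.827 and 0.712 CPM in Pole4+/+ Trp53+/+, 0.398, 0.932 and 0.976 in Pole4+/+ Trp53+/- and 0.139, 0.621 and 0.728 in Pole4+/+ Trp53-/- libraries. Mmp12 in Pole4-/- MEFs was at 0.150, 0.250 and 0.134 CPM with Trp53+/+, 0.385, 0.935 and 1.34 with Trp53+/- and 1.81, 0.209 and 1.39 with Trp53-/-. Mmp12, the macrophage elastase, rose by 2.65 ± 0.96 (SE; adjusted p = 0.0355) on the log2 scale, but Pole4-/- Trp53-/- replicate 2 stood at 0.209 CPM, within the Pole4-/- Trp53+/+ range. It did not pass without Pole4-/- Trp53-/- replicate 1 or 3 or any 1 of the Pole4-/- Trp53+/+ libraries (log2 fold changes of 2.11 to 2.93, edgeR adjusted p up to 0.130). The summed level of 12 macrophage markers was also lower in Pole4-/- Trp53-/- replicate 2, at 8.32 CPM, against 42.5 and 31.4 in the other 2 of its genotype. It was 12.1, 12.7 and 30.4 CPM in Pole4-/- Trp53+/+; no marker was at 0 throughout, 0 of the 12 passed the edgeR test in this comparison, and their part in the Mmp12 and Mmp9 results was not tested. With log2 Xist in the fit, the 3 members that rose no longer passed, at log2 fold changes of 2.52 ± 1.02 (SE; adjusted p = 0.0647) for Mmp9, 2.15 ± 1.04 (SE; adjusted p = 0.117) for Mmp12 and 1.26 ± 0.53 (SE; adjusted p = 0.0735) for Adamts20.

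**Figure D4:**
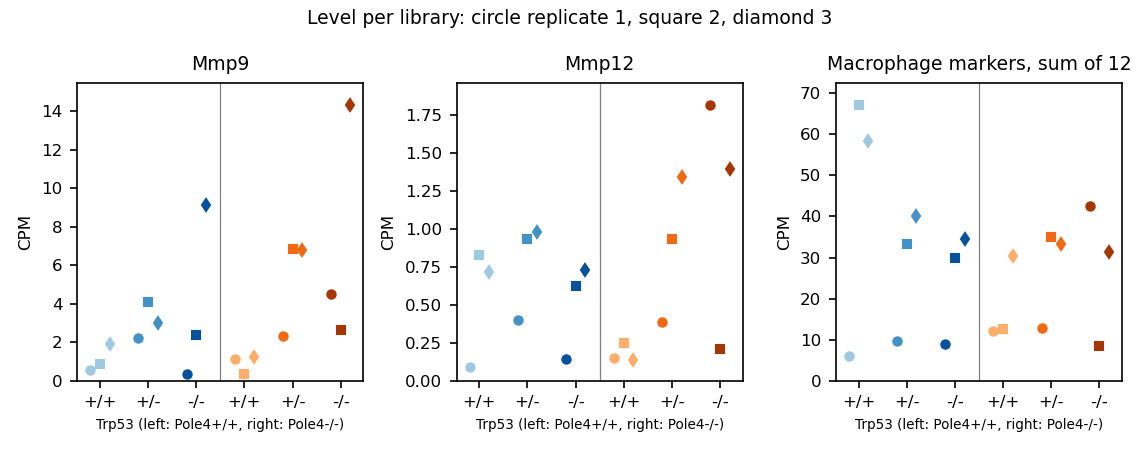
CPM of Mmp9, of Mmp12 and of 12 macrophage markers summed, in separate panels by genotype (x axis), 1 point per library, coloured by genotype. Pole4-/- Trp53-/- replicate 2, at 8.32 CPM of markers, has 2.62 CPM of Mmp9 and 0.209 CPM of Mmp12; no correlation was tested.

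The ADAMTS proteoglycanases cut versican and aggrecan, the large proteoglycans of loose matrix and cartilage. Of 7 tested, 4 fell with Trp53 loss in Pole4-/- MEFs (Adamts1, Adamts4, Adamts5 and Adamts15) and 1 rose (Adamts20). Of all genes, 20.8% fell and 21.8% rose there. Adamts1 and Adamts5 are neighbours on chromosome 16, with 53.1 kb between them. Adamts1 (ENSMUSG00000022893, chr16:85793827-85803113, minus strand) stood at 175, 157 and 178 CPM in Pole4+/+ Trp53+/+, 151, 113 and 131 in Pole4+/+ Trp53+/- and 225, 115 and 122 in Pole4+/+ Trp53-/- libraries. Adamts1 in Pole4-/- MEFs was at 324, 282 and 225 CPM with Trp53+/+, 168, 109 and 140.1 with Trp53+/- and 124, 151 and 115 with Trp53-/-. The lowest Pole4-/- Trp53+/+ library of Adamts1, at 225 CPM, was level with Pole4+/+ Trp53-/- replicate 1 and above every other library. Adamts5 (ENSMUSG00000022894, chr16:85856173-85901828, minus strand) was counted at 186, 153 and 213 CPM in Pole4+/+ Trp53+/+, 137, 109 and 128 in Pole4+/+ Trp53+/- and 218, 90.5 and 98 in Pole4+/+ Trp53-/- libraries. For Adamts5, the Pole4-/- libraries gave 390.3, 397 and 321 CPM in Trp53+/+, 193, 117 and 171 in Trp53+/- and 115, 131 and 109 in Trp53-/- MEFs. The 3 Pole4-/- Trp53+/+ values of Adamts5 exceeded all others. From Pole4-/- Trp53+/+ to Pole4-/- Trp53-/-, Adamts1 changed by -1.09 ± 0.23 (SE; adjusted p = 0.00160) and Adamts5 by -1.65 ± 0.28 (SE; adjusted p = 0.000321) on the log2 scale. Adamts4 (ENSMUSG00000006403, chr1:171250421-171260637, plus strand) measured 10.5, 7.86 and 15.7 CPM in Pole4+/+ Trp53+/+, 22.7, 16.2 and 20.1 in Pole4+/+ Trp53+/- and 19.8, 11.5 and 11.7 in Pole4+/+ Trp53-/- libraries. Adamts4 in Pole4-/- MEFs was at 28.5, 21.9 and 25.3 CPM with Trp53+/+, 18.1, 14 and 26.8 with Trp53+/- and 12.6, 11.1 and 9.22 with Trp53-/-. The change of Adamts4, -1.20 ± 0.28 (SE; adjusted p = 0.00331), left all 3 Pole4-/- Trp53-/- libraries below 21.9 CPM, the lowest of Pole4-/- Trp53+/+.

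Adamts15 and Adamts20 were scarce proteoglycanases that moved in opposite directions. Adamts15 (ENSMUSG00000033453, chr9:30899155-30922452, minus strand) stood at 0.695, 0.0517 and 0.890 CPM in Pole4+/+ Trp53+/+, 1.75, 1.73 and 3.64 in Pole4+/+ Trp53+/- and 1.84, 0.815 and 0.404 in Pole4+/+ Trp53-/- libraries. Adamts15 in Pole4-/- MEFs was at 2.73, 2.25 and 4.55 CPM with Trp53+/+, 0.846, 0.655 and 1.99 with Trp53+/- and 0.318, 0.838 and 0.332 with Trp53-/-. The change of Adamts15 was -2.64 ± 0.72 (SE; adjusted p = 0.00834) without overlap of the groups. Adamts20 (ENSMUSG00000022449, chr15:94270163-94465418, minus strand) was counted at 0.816, 0.724 and 0.475 CPM in Pole4+/+ Trp53+/+, 0.928, 0.333 and 1.60 in Pole4+/+ Trp53+/- and 0.837, 1.28 and 0.889 in Pole4+/+ Trp53-/- libraries. For Adamts20, the Pole4-/- libraries gave 0.449, 0.584 and 0.803 CPM in Trp53+/+, 0.410, 0.655 and 0.904 in Trp53+/- and 1.41, 1.20 and 1.66 in Trp53-/- MEFs. Adamts20 rose by 1.27 ± 0.48 (SE; adjusted p = 0.0440), again without overlap. It lost its call without any 1 of the Pole4-/- Trp53-/- libraries, Pole4-/- Trp53+/+ replicate 1 or 2, Pole4-/- Trp53+/- replicate 2, Pole4+/+ Trp53+/+ replicate 1 or 2, Pole4+/+ Trp53+/- replicate 1 or Pole4+/+ Trp53-/- replicate 3, with log2 fold changes of 1.07 to 1.38 and adjusted p up to 0.160. Adamts8 and Adamts9, the other 2, did not pass, at 1.42 ± 0.79 (SE; adjusted p = 0.164) and 0.29 ± 0.25 (SE; adjusted p = 0.389).

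The procollagen N-proteinases remove the amino-terminal propeptide so that collagen fibrils can form. With Trp53 loss in Pole4-/- MEFs 2 of the 3 fell, where 20.8% of all genes fell. Adamts2 (ENSMUSG00000036545, chr11:50602084-50807573, plus strand) stood at 22.2, 20.6 and 21 CPM in Pole4+/+ Trp53+/+, 31.4, 27.9 and 31.8 in Pole4+/+ Trp53+/- and 28.9, 15.3 and 16.8 in Pole4+/+ Trp53-/- libraries. Adamts2 in Pole4-/- MEFs was at 34.2, 26.4 and 19.1 CPM with Trp53+/+, 25.6, 22.6 and 23.8 with Trp53+/- and 17.2, 17.4 and 14.9 with Trp53-/-. Adamts2 changed by -0.70 ± 0.21 (SE; adjusted p = 0.0143). The 19.1 CPM of Pole4-/- Trp53+/+ replicate 3 exceeded the highest Pole4-/- Trp53-/- value, 17.4, only narrowly. The call was lost without Pole4-/- Trp53+/+ replicate 1 (log2 fold change -0.45, adjusted p = 0.127 in edgeR) or Pole4-/- Trp53-/- replicate 3 (-0.63, adjusted p = 0.0601). Adamts14 (ENSMUSG00000059901, chr10:61197112-61273438, minus strand) was counted at 19.7, 14.5 and 22.1 CPM in Pole4+/+ Trp53+/+, 22.9, 21.3 and 28.2 in Pole4+/+ Trp53+/- and 13.9, 14.4 and 21.2 in Pole4+/+ Trp53-/- libraries. For Adamts14, the Pole4-/- libraries gave 21.9, 18.2 and 21.3 CPM in Trp53+/+, 22.2, 21.4 and 27.6 in Trp53+/- and 11.7, 11 and 12.7 in Trp53-/- MEFs. Adamts14 overlapped between Trp53+/+ and Trp53+/- in Pole4-/- MEFs and was lower in all 3 Trp53-/- libraries, with -0.80 ± 0.18 (SE; adjusted p = 0.00271) against Trp53+/+ and -1.01 ± 0.18 (SE; adjusted p = 0.00271) against Trp53+/-. Adamts3 did not pass (-0.12 ± 0.32 SE, adjusted p = 0.801).

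Adamts12 and Adamts7 both cut the cartilage matrix protein COMP and here differed. Adamts12 (ENSMUSG00000047497, chr15:11064790-11349231, plus strand) was, with Mmp2, 1 of 2 members that fell in both Trp53-/- comparisons. Adamts12 stood at 93.8, 73.2 and 89.6 CPM in Pole4+/+ Trp53+/+, 63.8, 61.1 and 49.7 in Pole4+/+ Trp53+/- and 45.7, 42.8 and 50.1 in Pole4+/+ Trp53-/- libraries. Adamts12 in Pole4-/- MEFs was at 126, 122 and 134 CPM with Trp53+/+, 102, 72.8 and 77.6 with Trp53+/- and 54.2, 60.4 and 44.4 with Trp53-/-. Its Trp53-/- and Trp53+/+ values did not overlap in either Pole4 genotype. The change was -1.26 ± 0.14 (SE; adjusted p = 1.55e-05) in Pole4-/- and -0.89 ± 0.14 (SE; adjusted p = 0.00205) in Pole4+/+ MEFs, and the latter did not pass with library totals alone (adjusted p = 0.0604). Adamts7 (ENSMUSG00000032363, chr9:90163069-90208071, plus strand) measured 7.86, 7.70 and 8.66 CPM in Pole4+/+ Trp53+/+, 15.4, 11.6 and 11.6 in Pole4+/+ Trp53+/- and 13.6, 11.3 and 13.3 in Pole4+/+ Trp53-/- libraries. For Adamts7, the Pole4-/- libraries gave 7.38, 11.6 and 9.24 CPM in Trp53+/+, 9.21, 8.74 and 10.8 in Trp53+/- and 11.1, 8.64 and 9.22 in Trp53-/- MEFs. Adamts7 rose in Pole4+/+ MEFs (0.65 ± 0.17 SE, adjusted p = 0.0345) and gave 0.05 ± 0.17 (SE; adjusted p = 0.847) in Pole4-/- MEFs, with overlapping values. The call of Adamts7 was lost without any 1 of the Pole4+/+ Trp53+/+ libraries or Pole4+/+ Trp53-/- replicate 3 (log2 fold changes of 0.61 to 0.69, edgeR adjusted p up to 0.114). It was also lost with library totals alone, the compared groups only or the ribosomal RNA share in the fit (adjusted p up to 0.166). Adamts7 shares 122 exon bases with Tbc1d2b.

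Adamts10 and some of the ADAMTS-like genes are tied to fibrillin microfibrils, the scaffold of elastic fibres. Adamts10 (ENSMUSG00000024299, chr17:33524204-33553782, plus strand) stood at 28, 20.1 and 31.4 CPM in Pole4+/+ Trp53+/+, 25.1, 18.2 and 25.4 in Pole4+/+ Trp53+/- and 30.9, 15.9 and 15.7 in Pole4+/+ Trp53-/- libraries. Adamts10 in Pole4-/- MEFs was at 61.6, 52.2 and 43.1 CPM with Trp53+/+, 28, 18 and 31.7 with Trp53+/- and 17, 15.9 and 12.7 with Trp53-/-. The 3 Pole4-/- Trp53+/+ libraries were the 3 highest, and Adamts10 changed by -1.79 ± 0.28 (SE; adjusted p = 0.000179). All 4 tested ADAMTS-like genes fell with Trp53 loss in Pole4-/- MEFs, where 20.8% of all genes fell. Adamtsl1 (ENSMUSG00000066113, chr4:85514172-86428385, plus strand) was counted at 10, 5.74 and 7.83 CPM in Pole4+/+ Trp53+/+, 10.4, 7.32 and 11.5 in Pole4+/+ Trp53+/- and 17.3, 6.21 and 6.71 in Pole4+/+ Trp53-/- libraries. For Adamtsl1, the Pole4-/- libraries gave 22.5, 27.8 and 21 CPM in Trp53+/+, 13.3, 6.45 and 10.7 in Trp53+/- and 4.81, 10 and 6.30 in Trp53-/- MEFs. Adamtsl1 split cleanly between Pole4-/- Trp53+/+ and Pole4-/- Trp53-/- libraries. Adamtsl3 (ENSMUSG00000070469, chr7:82335694-82614450, plus strand) measured 50.1, 38.3 and 43.5 CPM in Pole4+/+ Trp53+/+, 48.6, 37 and 40.6 in Pole4+/+ Trp53+/- and 64.9, 23.6 and 15.1 in Pole4+/+ Trp53-/- libraries. Adamtsl3 in Pole4-/- MEFs was at 102, 96.4 and 83.4 CPM with Trp53+/+, 57.8, 39.1 and 49.5 with Trp53+/- and 36.2, 44.9 and 14.3 with Trp53-/-. Adamtsl3 spread widely within the Trp53-/- groups, where Pole4+/+ replicate 1 was the highest of its 3. Adamtsl4 (ENSMUSG00000015850, chr3:95676201-95687917, minus strand) stood at 15.8, 12.8 and 15.3 CPM in Pole4+/+ Trp53+/+, 14.2, 12 and 12.1 in Pole4+/+ Trp53+/- and 20.8, 6.44 and 3.40 in Pole4+/+ Trp53-/- libraries. For Adamtsl4, the Pole4-/- libraries gave 25.3, 32.4 and 24.9 CPM in Trp53+/+, 18.8, 10.8 and 12.5 in Trp53+/- and 7.76, 9.48 and 4.57 in Trp53-/- MEFs. Adamtsl4, which promotes fibrillin-1 assembly, was likewise highest in replicate 1 among the Pole4+/+ Trp53-/- libraries. Adamtsl5 (ENSMUSG00000043822, chr10:80339110-80348412, minus strand) was counted at 17, 15.9 and 17.8 CPM in Pole4+/+ Trp53+/+, 16.7, 13.9 and 16.2 in Pole4+/+ Trp53+/- and 17.4, 11.5 and 9.30 in Pole4+/+ Trp53-/- libraries. Adamtsl5 in Pole4-/- MEFs was at 21.8, 28.5 and 23.8 CPM with Trp53+/+, 22.1, 15.2 and 15.8 with Trp53+/- and 13.9, 10.8 and 9.35 with Trp53-/-. For each of these 4 genes every Pole4-/- Trp53-/- value was below every Pole4-/- Trp53+/+ value. The changes were -1.76 ± 0.39 (SE; adjusted p = 0.00244) for Adamtsl1, -1.56 ± 0.45 (SE; adjusted p = 0.0125) for Adamtsl3, -1.91 ± 0.46 (SE; adjusted p = 0.00439) for Adamtsl4 and -1.11 ± 0.21 (SE; adjusted p = 0.000716) for Adamtsl5.

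The TIMPs did not move together. Timp2, which inhibits MMPs and also links Mmp2 to Mmp14 at the cell surface, came next to Timp1 in CPM per kb (ENSMUSG00000017466, chr11:118301069-118355740, minus strand). Timp2 stood at 632, 583 and 571 CPM in Pole4+/+ Trp53+/+, 460.2, 425 and 439.9 in Pole4+/+ Trp53+/- and 642, 382 and 425 in Pole4+/+ Trp53-/- libraries. Timp2 in Pole4-/- MEFs was at 858, 987 and 808 CPM with Trp53+/+, 710.3, 417 and 470.4 with Trp53+/- and 421, 521 and 404 with Trp53-/-. All 3 Pole4-/- Trp53+/+ libraries exceeded the other 15. The change from Pole4-/- Trp53+/+ to Pole4-/- Trp53-/- was -0.98 ± 0.20 (SE; adjusted p = 0.00111); in Pole4+/+ it was -0.30 ± 0.19 (SE; adjusted p = 0.449), and without Pole4+/+ Trp53-/- replicate 1 it was -0.59 ± 0.18 (SE; adjusted p = 0.0311). Timp1 (ENSMUSG00000001131, chrX:20870166-20874735, plus strand) was counted at 184, 169 and 141 CPM in Pole4+/+ Trp53+/+, 143, 153 and 126 in Pole4+/+ Trp53+/- and 89.5, 112 and 168 in Pole4+/+ Trp53-/- libraries. For Timp1, the Pole4-/- libraries gave 157, 130.1 and 152 CPM in Trp53+/+, 209.5, 171 and 144 in Trp53+/- and 125, 155 and 160.1 in Trp53-/- MEFs. Timp1, a secreted inhibitor with little effect on membrane-type MMPs, overlapped between the 2 Pole4-/- groups, with a log2 fold change of 0.00 and a 95% interval of -0.42 to 0.42. Timp3 (ENSMUSG00000020044, chr10:86300372-86349506, plus strand) measured 663, 415 and 332 CPM in Pole4+/+ Trp53+/+, 415, 373 and 341 in Pole4+/+ Trp53+/- and 296, 350.3 and 452 in Pole4+/+ Trp53-/- libraries. Timp3 in Pole4-/- MEFs was at 371, 497 and 421 CPM with Trp53+/+, 599, 439 and 306 with Trp53+/- and 398, 496 and 501 with Trp53-/-. Timp3, which stays bound to the matrix and also inhibits ADAMTS proteases, gave 0.11 with a 95% interval of -0.43 to 0.66 in Pole4-/- MEFs, and it shares 1733 exon bases with Syn3. In Pole4+/+ MEFs the changes of Timp1 and Timp3 were -0.42 ± 0.19 (SE; adjusted p = 0.251) and -0.36 ± 0.25 (SE; adjusted p = 0.494), and without Pole4+/+ Trp53-/- replicate 1 they were -0.26 ± 0.18 (SE; adjusted p = 0.367) and -0.26 ± 0.28 (SE; adjusted p = 0.597). Without Pole4+/+ Trp53-/- replicate 3 that of Timp1 was -0.72 (adjusted p = 0.0253), and without 1 library in turn that of Timp3 ran from -0.57 to -0.03, the last without Pole4+/+ Trp53+/+ replicate 1. Timp4 (ENSMUSG00000030317, chr6:115241892-115252205, minus strand) stood at 0.0605, 0.0517 and 0.0593 CPM in Pole4+/+ Trp53+/+, 0, 0 and 0 in Pole4+/+ Trp53+/- and 0.0279, 0 and 0 in Pole4+/+ Trp53-/- libraries. For Timp4, the Pole4-/- libraries gave 0, 0.0835 and 0 CPM in Trp53+/+, 0, 0.0468 and 0 in Trp53+/- and 0.0454, 0 and 0.0663 in Trp53-/- MEFs. Timp4 had 9 counts in all and was not tested.

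**Figure D5:**
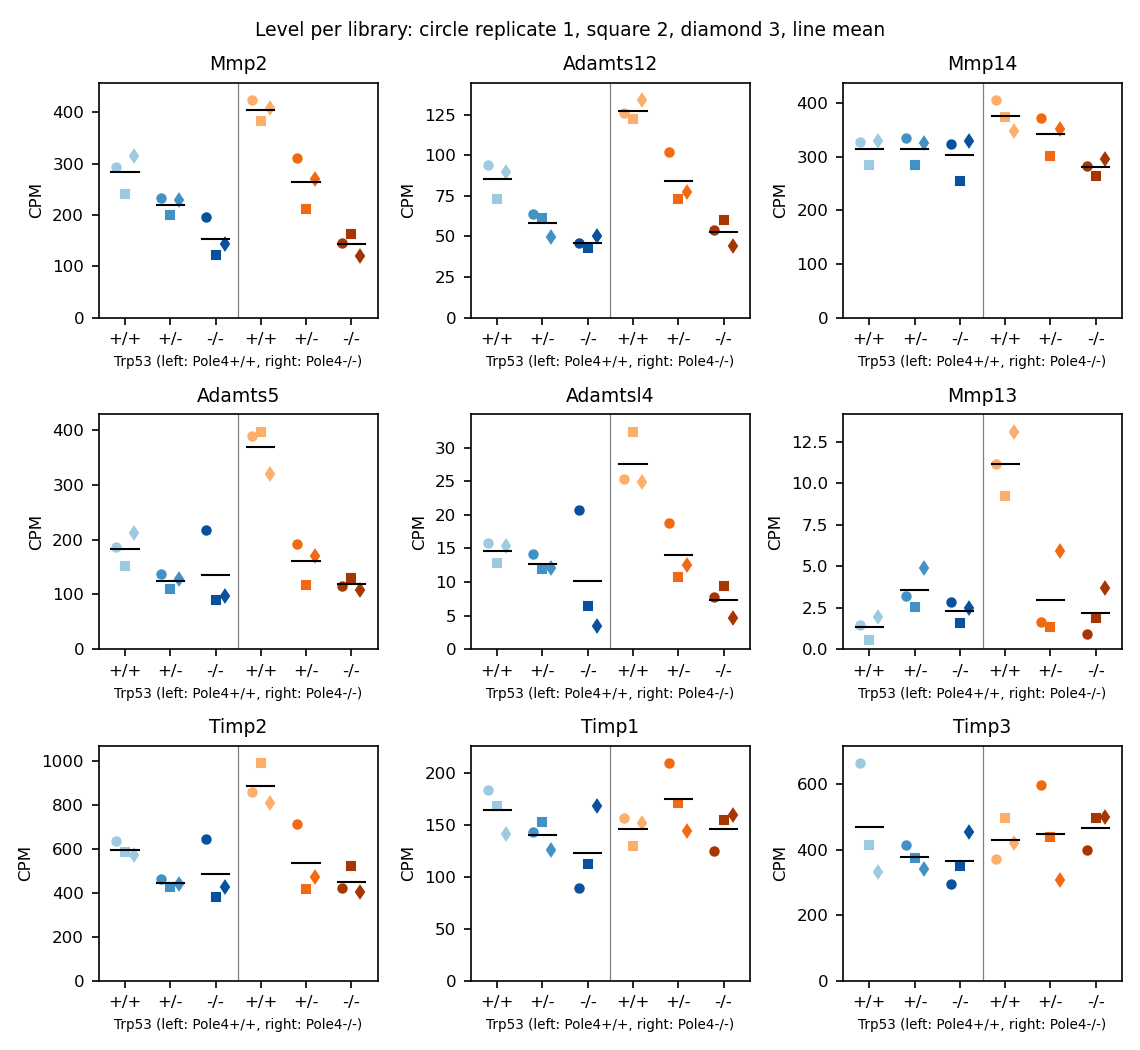
CPM of 9 members in the 18 libraries by genotype; circles, squares and diamonds are replicates 1, 2 and 3, and lines are means of 3. Mmp2 and Adamts12 are lower in Trp53-/- with either Pole4 genotype, whereas Timp1 and Timp3 overlap between Pole4-/- Trp53+/+ and Pole4-/- Trp53-/-.

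Apart from Timp1 and Timp3, the 11 tested members without a call were Mmp3, Mmp10, Mmp17, Mmp28, Adamts3, Adamts6, Adamts8, Adamts9, Adamts16, Adamts17 and Adamts18. With all libraries none passed in any of the 10 comparisons; the nearest in this one was Mmp28 at -1.53 ± 0.61 (SE; adjusted p = 0.0543), and the log2 fold changes of 9 others ran from -0.37 for Adamts6 to 1.43 for Mmp3. Adamts17 had at most 2 counts in each Pole4-/- Trp53-/- library and at most 4 in each Pole4-/- Trp53+/+ library, so no fold is given. Without Pole4+/+ Trp53-/- replicate 1, Mmp28 passed here (-1.55 ± 0.52 SE, adjusted p = 0.0231), and Adamts18 passed between Trp53-/- and Trp53+/- in Pole4+/+ MEFs (1.67 ± 0.51 SE, adjusted p = 0.0494). Mmp28 also passed in the Pole4-/- comparison without Pole4+/+ Trp53-/- replicate 3, Pole4-/- Trp53-/- replicate 2 or Pole4-/- Trp53+/+ replicate 3, and Adamts8 without Pole4-/- Trp53-/- replicate 2. Adamts9 passed between Trp53-/- and Trp53+/- in Pole4-/- MEFs without Pole4-/- Trp53-/- replicate 2 or Pole4-/- Trp53+/+ replicate 1, and in the Pole4+/+ comparison of Trp53-/- with Trp53+/+ without the latter library.

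In Pole4+/+ MEFs, 2 of 39 members (Mmp2 and Adamts12) fell and 1 (Adamts7) rose with Trp53 loss, where 2.37% of all genes fell and 2.23% rose. The members' median log2 fold change was -0.07, against 0.03 over all genes, and 9 members had an unadjusted p under 0.05, as had 19% of all genes. With limma voom 10 fell (7.77% of all genes) and 1 rose. The comparison turned on 1 library. Without Pole4+/+ Trp53-/- replicate 1, 11 members fell (Adamts1, Adamts5, Adamts10, Adamts12, Adamtsl3, Adamtsl4, Adamtsl5, Mmp2, Mmp16, Mmp23 and Timp2) and Adamts7 rose, while 8.34% of all genes fell and 8.58% rose. Adamts10 then changed by -0.78 ± 0.25 (SE; adjusted p = 0.0459), Adamtsl4 by -1.56 ± 0.31 (SE; adjusted p = 0.00488), Mmp23 by -1.08 ± 0.22 (SE; adjusted p = 0.00554) and Mmp2 by -1.12 ± 0.16 (SE; adjusted p = 0.000622). Replicate 1 held 218 CPM of Adamts5, 64.9 of Adamtsl3 and 30 of Mmp23, against 90.5 and 98, 23.6 and 15.1, and 11.3 and 10.9 in replicates 2 and 3. The same omission left 23 lower and 3 higher members in Pole4-/- MEFs (24.3% and 23.3% of all genes), among them all 25 called with every library.

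The difference between the Trp53-/- effects in Pole4-/- and Pole4+/+ MEFs, taken as an interaction term, passed for 0 of 39 members in edgeR, against 0.331% of all genes. The members' median difference was -0.64 on the log2 scale, 22 had an unadjusted p under 0.05 (28.3% of all genes), and DESeq2 called 9 (10.7%) and limma voom 3 (7.85%). The lowest adjusted p values were those of Adamts4 (-1.55 ± 0.39 SE, adjusted p = 0.0550), Adamtsl1 (-2.13 ± 0.55 SE, adjusted p = 0.0565), Mmp13 (-3.17 ± 0.82 SE, adjusted p = 0.0577), Adamts10 (-1.45 ± 0.38 SE, adjusted p = 0.0586) and Adamts15 (-3.60 ± 1.00 SE, adjusted p = 0.0619). Without Pole4+/+ Trp53-/- replicate 1 these differences were -1.23, -1.45, -2.95, -1.03 and -2.84 in the same order (edgeR adjusted p of 0.117 to 0.153). The count was then 0 (1.07% of all genes) and the median -0.41. Leaving out replicate 2 or replicate 3 of the same genotype instead gave 11 and 14 (12.3% and 20.1% of all genes), and leaving out Pole4-/- Trp53+/- replicate 3 or Pole4+/+ Trp53+/+ replicate 3 gave 1 each (0.879% and 2.52%).

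With 1 copy of Trp53 lost in Pole4-/- MEFs, 7 members fell and none rose; 2.16% of all genes fell. They were Adamts1 (-0.99 ± 0.23 SE, adjusted p = 0.0298), Adamts5 (-1.20 ± 0.27 SE, adjusted p = 0.0283), Adamts10 (-1.01 ± 0.27 SE, adjusted p = 0.0440), Adamts12 (-0.60 ± 0.14 SE, adjusted p = 0.0314), Mmp2 (-0.61 ± 0.17 SE, adjusted p = 0.0490), Mmp16 (-1.23 ± 0.27 SE, adjusted p = 0.0251) and Timp2 (-0.73 ± 0.20 SE, adjusted p = 0.0444). For Mmp16 the heterozygous values of 34.8, 22.4 and 32 CPM overlapped the null values, 22.6, 33.5 and 23.5 CPM. The count rested on single libraries: it was 0 without Pole4-/- Trp53+/- replicate 2 or without any 1 of the Pole4-/- Trp53+/+ libraries (0.105% to 1.5% of all genes), 2 without Pole4-/- Trp53+/- replicate 3 (3.45%), and 4 without any 1 of the Pole4-/- Trp53-/- or Pole4+/+ Trp53+/- libraries or Pole4+/+ Trp53+/+ replicate 1 (2.74% to 4.22%). Where single omissions lost a call, log2 fold changes were -1.12 to -0.84 for Adamts1, -1.29 to -1.02 for Adamts5 and -1.18 to -0.81 for Adamts10. They were -0.63 to -0.50 for Adamts12, -0.74 to -0.48 for Mmp2, -1.24 to -1.06 for Mmp16 and -0.79 to -0.58 for Timp2. Without Pole4+/+ Trp53-/- replicate 1, 12 members were lower and 1 higher, as were 7.54% and 12.5% of all genes. With log2 Xist in the fit the count was 0 (0.872% of all genes), with library totals alone 0 (0.414% of all genes fell and 13.4% rose), and without a filter on low counts 2 (0.579% fell). With log2 Xist the 7 log2 fold changes ran from -1.18 for Adamts5 to -0.53 for Adamts12 (adjusted p of 0.0634 for Mmp16 to 0.108 for Mmp2). The count was 13 by limma voom, all lower (11.8% of all genes), and 11 lower and 1 higher in a fit of the compared groups only (7.56% and 10.7%). From Trp53+/- to Trp53-/- in Pole4-/- MEFs 3 members fell (5.91% of all genes) and none rose: Adamts14, Adamts12 (-0.67 ± 0.14 SE, adjusted p = 0.00750) and Mmp2 (-0.88 ± 0.17 SE, adjusted p = 0.00437), of which Adamts12 lost its call without Pole4-/- Trp53-/- replicate 3 (adjusted p = 0.0535). That count was 12 without Pole4+/+ Trp53-/- replicate 1 (12.1% of all genes fell), and 6 without its replicate 3 (8.59%) or without Pole4-/- Trp53+/- replicate 2 (5.12%). With all libraries, 8 were lower by DESeq2 (8.06% of all genes), 13 by limma voom (11.6%) and 10 in a fit of the compared groups only (8.52%); each also had 1 higher.

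In Pole4+/+ MEFs, 0 members passed in edgeR between Trp53+/- and Trp53+/+ (0.904% of all genes), with 10 at an unadjusted p under 0.05 (10.2%), 3 called by DESeq2 (2.55%) and 7 by limma voom (7.11%). Leaving out Pole4-/- Trp53+/- replicate 1, Pole4-/- Trp53+/+ replicate 1 or Pole4+/+ Trp53-/- replicate 1 gave 1 (0.83% to 2.34% of all genes). Between Trp53-/- and Trp53+/- the edgeR count was also 0 (0.579% of all genes), with 5 at an unadjusted p under 0.05 (9.31%), 0 by DESeq2 (1.32%) and 6 by limma voom (7.59%), and 7 without Pole4+/+ Trp53-/- replicate 1 (9.41%). All 3 Pole4+/+ Trp53+/- values lay above all 3 Pole4+/+ Trp53+/+ values for 9 members (Adamts2, Adamts4, Adamts7, Adamts8, Adamts15, Adamts16, Mmp9, Mmp13 and Mmp19) and below them for 7 (Adamts1, Adamts5, Adamts12, Mmp2, Mmp16, Mmp25 and Timp2), against 10.2% and 10.1% of all genes.

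With Trp53 intact, 4 of 39 members were higher without Pole4, against 1.29% of all genes: Mmp13 (3.06 ± 0.60 SE, adjusted p = 0.0203), Adamtsl1 (1.59 ± 0.39 SE, adjusted p = 0.0372), Adamts4 (1.16 ± 0.28 SE, adjusted p = 0.0357) and Adamts12 (0.57 ± 0.14 SE, adjusted p = 0.0378). None fell, the median log2 fold change was 0.52 over the members and 0.01 over all genes, and 20 members had an unadjusted p under 0.05, as had 26.1% of all genes. Mmp13 was at 1.34 ± 0.706 CPM (SD, n = 3) in Pole4+/+ Trp53+/+ and 11.2 ± 1.93 in Pole4-/- Trp53+/+, with no overlap. By DESeq2 11 members were higher (3.63% of all genes), by limma voom 18 (16%) and in a fit of the compared groups only 17 (10.9%). The count was 0 without Pole4-/- Trp53+/+ replicate 2 or 3 or Pole4+/+ Trp53+/+ replicate 1 or 2 (0.0493% to 0.161% of all genes passed), and 1 without Pole4-/- Trp53+/+ replicate 1 (0.874%). It was 17 without Pole4+/+ Trp53-/- replicate 1 and 7 without replicate 3 of that genotype, all higher, where 7.87% and 2.42% of all genes were higher. Where single omissions lost a call, log2 fold changes were 2.71 to 3.17 for Mmp13, 1.40 to 1.81 for Adamtsl1, 0.95 to 1.25 for Adamts4 and 0.47 to 0.64 for Adamts12. The comparison shares its Pole4-/- Trp53+/+ libraries with the Trp53 comparisons in Pole4-/- MEFs, and with log2 Xist in the fit none of the 4 passed, with 0.0191% of all genes called. The log2 fold changes were then 3.38 ± 0.68 (SE; adjusted p = 0.0936) for Mmp13, 1.31 ± 0.41 (SE; adjusted p = 0.172) for Adamtsl1, 1.28 ± 0.32 (SE; adjusted p = 0.128) for Adamts4 and 0.44 ± 0.15 (SE; adjusted p = 0.197) for Adamts12. With library totals alone 2 members were higher (0.363% of all genes, with 13.9% lower), and without a filter on low counts 2 (0.381%). The ribosomal RNA share was 5.81% to 11.2% in Pole4+/+ Trp53+/+ and 7.11% to 42.5% in Pole4-/- Trp53+/+, and with it in the fit 14 members were higher (5.23% of all genes). Between Pole4-/- and Pole4+/+, 0 members passed in Trp53+/- MEFs and 0 in Trp53-/- MEFs in edgeR (0.00637% of all genes each), with 2 and 4 at an unadjusted p under 0.05 (5.51% and 10.4%), 0 in both by DESeq2 (0.248% and 0.185%), and 1 and 0 by limma voom (1.57% and 0.00637%).

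Genes that work beside these proteases were counted from lists drawn up with earlier results known, and each count stands beside the 20.8% of all genes that fell and the 21.8% that rose with Trp53 loss in Pole4-/- MEFs. In Pole4-/- MEFs, 3 of 10 ADAM proteases, the membrane-bound relatives of the ADAMTS family, fell with Trp53 loss and none rose: Adam15 (-1.09 ± 0.17 SE, adjusted p = 0.000175), Adam23 (-1.54 ± 0.30 SE, adjusted p = 0.000893) and Adam22 (-1.33 ± 0.42 SE, adjusted p = 0.0187). Of genes that restrain, induce or take up metalloproteases, 5 of 8 fell and none rose, among them Reck, a membrane-bound MMP inhibitor (-2.08 ± 0.35 SE, adjusted p = 0.000368), Lrp1, an endocytic receptor for proteases (-1.18 ± 0.23 SE, adjusted p = 0.000803), Bsg, an inducer of MMP genes (-0.78 ± 0.12 SE, adjusted p = 0.000127), and Pcolce, an enhancer of procollagen C-proteinase (-0.82 ± 0.20 SE, adjusted p = 0.00411). The procollagen C-proteinase Bmp1 fell too, as 1 of 2 astacin proteases tested (-0.85 ± 0.14 SE, adjusted p = 0.000202). In the plasminogen system, which activates several proMMPs, 1 of 7 fell: Serpine2, an inhibitor of urokinase and thrombin, was at 134, 152 and 118 CPM in Pole4-/- Trp53+/+ and 4.26, 4.29 and 5.24 CPM in Pole4-/- Trp53-/- (-4.88 ± 0.61 SE, adjusted p = 5.14e-05).

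Of 15 matrix substrates, 9 fell and 1 rose in the same comparison. Eln, the elastin gene, changed by -3.13 ± 0.49 (SE; adjusted p = 0.000271), Fn1 (fibronectin) by -1.19 ± 0.18 (SE; adjusted p = 0.000127), Bgn (biglycan) by -0.89 ± 0.15 (SE; adjusted p = 0.000238) and Sparc by -0.86 ± 0.12 (SE; adjusted p = 7.01e-05). Among 11 tested genes of the signals known to induce MMP genes, 4 fell and 2 rose: Fos changed by -2.53 ± 0.67 (SE; adjusted p = 0.00796) and Jund by -0.56 ± 0.17 (SE; adjusted p = 0.0145), whereas Fosl1 (1.76 ± 0.40 SE, adjusted p = 0.00293) and Ets1 (0.95 ± 0.24 SE, adjusted p = 0.00508) rose. In Pole4+/+ MEFs only Thbs1, a matrix substrate, passed from these 6 lists with Trp53 loss, as lower (2.37% of all genes fell there). Of other marker lists in the Pole4-/- comparison, 1 of 6 endothelial genes fell (Cldn5 was at 0 throughout), 2 of 3 epithelial genes rose, 1 of 8 skeletal muscle genes fell, 3 of 9 cartilage and bone genes fell and 1 rose, and 1 of 8 neural genes fell and 3 rose; 0 of 8 erythroid genes had enough reads to test. Their part in the members' result was not tested.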

How the data were processed

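RNA was sequenced from 18 MEF libraries, 3 of each Pole4 and Trp53 genotype, and groups and replicate numbers follow the sample labels. The deposited table holds expected counts per Ensembl gene, which the authors made with RSEM 1.3.0 and STAR 2.5.2 (versions per the submitters' processing notes) against Ensembl release 89 on GRCm38; reads of similar genes are split by estimation, so 6.14% of values were not whole. Counts were rounded here. Symbols, positions and exon lengths came from GENCODE vM21, also GRCm38, which matched 51719 of the 51912 gene IDs. The rule on symbols then gave the 51 members. The members and gene lists were chosen with earlier results of these data known.

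Genes were kept by filterByExpr (15710), scaled by TMM and fitted in edgeR 4.0.16 (R 4.3.3) with 1 mean per genotype over all 18 libraries. The 9 pairwise comparisons and the interaction were tested by quasi-likelihood with Benjamini-Hochberg adjustment over all genes tested, and a gene was called at an adjusted p under 0.05. The standard error is the fold change divided by the root of the F statistic, intervals use 12 residual degrees of freedom, and CPM uses the TMM-scaled totals. The fits were tested on simulated data. Members called in any comparison, the 4 TIMP genes and the 5 members with the highest CPM per kb were given by library; of related lists, counts and the genes with the lowest p. Library totals ranged from 9535971 to 35319918 counts, which leaves wide errors for members near 1 CPM. Alternatives were DESeq2 1.42.0, limma 3.58.1 voom with sample weights, other scaling, filters, thresholds and covariates, a replicate block, fits of the compared groups alone and leaving out each library. No pair of libraries within a genotype agreed within sampling noise. Some members share exon bases with neighbouring genes, Adamts4 among them, and the split of reads between such genes is uncertain. A matrix substrate gene is not reported here.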

Additional observations from a re-analysis of the deposited data

How the results depend on the processing

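In Pole4-/- MEFs, the 25 members called between Trp53-/- and Trp53+/+ were 19 to 26 under every alternative run, 20 to 26 with any 1 library left out, and 15 of the 25 were called under every one run for them (Adamts15 and Mmp15 fall below the mean of 50 counts and have no value there). The other counts moved, and the share of all genes called in either direction by the same fit, given in brackets, moved as well. DESeq2 gave 3 for Trp53+/- against Trp53+/+ in Pole4+/+ (2.55%), 9 for Trp53-/- against Trp53+/- in Pole4-/- (16.9%), 11 for Pole4 loss in Trp53+/+ (9.57%) and 9 for the interaction (10.7%). limma voom gave 11 for Trp53-/- in Pole4+/+ (18.8%), 13 and 7 for Trp53+/- against Trp53+/+ in Pole4-/- and Pole4+/+ (24.6% and 7.11%), 14 and 6 for Trp53-/- against Trp53+/- in the same order (25.7% and 7.59%), 18 and 1 for Pole4 loss in Trp53+/+ and Trp53+/- (33.3% and 1.57%), and 3 for the interaction (7.85%). Fits of the compared groups alone gave 1 for Trp53-/- in Pole4+/+ (0.616%), 12 and 3 for Trp53+/- in Pole4-/- and Pole4+/+ (18.2% and 1.54%), 11 for Trp53-/- against Trp53+/- in Pole4-/- (16.6%) and 17 for Pole4 loss in Trp53+/+ (24.1%). Library totals alone gave 0 for Trp53-/- in Pole4+/+ (1.22%), 0 for Trp53+/- in Pole4-/- (13.8%) and 2 for Pole4 loss in Trp53+/+ (14.3%); that scaling moved the median log2 fold change of all genes to 0.12, 0.29 and -0.28. No filter gave 2 for Trp53+/- in Pole4-/- (3.03%) and 2 for Pole4 loss (2.78%), and a mean of at least 50 counts gave 4 for the interaction (4.23%). With log2 Xist in the fit, Trp53+/- in Pole4-/- and Pole4 loss each gave 0 (0.872% and 0.0191%), and with the ribosomal RNA share Pole4 loss gave 14 (12.2%). An adjusted p under 0.01 left 0 for Trp53+/- in Pole4-/- and for Pole4 loss. An adjusted p under 0.05 with a log2 fold change of 1 or more in size left 0 for Trp53-/- in Pole4+/+. The latter left 3 for Trp53+/- and 1 for Trp53-/- against Trp53+/- in Pole4-/-. Shares of all genes at these limits are not given. The cause of these shifts was not tested.

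Without each library in turn, counts ran from 2 to 12 for Trp53-/- in Pole4+/+ (2.01% to 16.9% of all genes), 0 to 13 and 0 to 1 for Trp53+/- in Pole4-/- and Pole4+/+ (0.105% to 20% and 0.105% to 2.34%), 2 to 12 and 0 to 7 for Trp53-/- against Trp53+/- (4.03% to 23% and 0.347% to 9.41%), 0 to 17 for Pole4 loss in Trp53+/+ (0.0493% to 20.2%) and 0 to 14 for the interaction (0% to 20.1%). None of the 42 called fold changes changed sign; of the 5 TIMP fold changes recomputed without a call, that of Timp1 in Pole4-/- did, between -0.09 and 0.11. The labels do not say what a replicate number shares. Deviations of same-numbered libraries had a median correlation of 0.098 over 45 pairs (22 above 0.1), against -0.060 over 90 differently numbered pairs (16 above 0.1). By mean correlation 13 of 18 libraries were closest to their own number. Replicate 1 was the deepest library in 6 of 6 genotypes and the lowest in macrophage markers in 5. As not every pair exceeded 0.1, the fits were left without a block, though this rule cannot show that equal numbers share no batch. A shared batch by number was not tested further. A replicate block gave 26 for Trp53-/- in Pole4-/- (43.9%), 1 for Trp53+/- in Pole4+/+ (1.21%), 8 and 1 for Trp53-/- against Trp53+/- in Pole4-/- and Pole4+/+ (14.3% and 0.687%), 8 for Pole4 loss in Trp53+/+ (5.7%) and 3 for the interaction (3.49%). The 12 untested members had too few reads to test, and members near 1 CPM had wide errors.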
